A study of Mus musculus with 48 samples.

Results

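The 9 genes described here are chemokines that draw T cells and the receptors that read them: the ligands Cxcl9, Cxcl10, Cxcl16, Ccl3, Ccl4 and Ccl5, and the receptors Cxcr3, Cxcr6 and Ccr1. They were chosen by symbol, and all 9 were found among the 20300 genes of the table of mixed cells and among the 14363 genes of the table of CD11b+ cells. Chemokines are small secreted proteins that bind receptors on leukocytes and set the direction in which those cells migrate. Cxcl9 and Cxcl10 are induced by interferon-gamma and bind Cxcr3 on activated T cells and NK cells, Cxcl16 is a membrane-anchored ligand of Cxcr6, and Ccl3 and Ccl5 bind Ccr1. In gliomas most leukocytes are myeloid cells, which are a known source of these ligands.

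Single-cell RNA was measured in GL261 mouse glioma tumors grown in C57BL/6 mice, from tumor cells carrying either a negative control shRNA (shNC) or an shRNA against P-Selectin (shSELP). The mixed-cell experiment held 2 libraries per group from day 16 after inoculation, in which CD11b+ cells, other CD45+ cells and what was left of the suspension went in at equal amounts. A second experiment held CD11b+ cells alone, with 1 library per group, from day 21. These days are from the sample labels, while the study's methods give the same day for both preparations, and it is neither of these. Each suspension came from a pool of 3 brains per group by the study's methods, and whether a group's 2 libraries derive from different animals or pools is not stated in the labels, so the p-values below measure only the spread between these libraries. The knockdown was in the implanted tumor cells only, not in the host's leukocytes or vessels. Of the 8 sequencing entries of the CD11b+ shSELP library, 7 carry a description that names the negative control, while genotype and title name the knockdown. With 2 libraries against 2, the smallest two-sided p of an exact permutation test is 0.333, so the tests below come from fits across all genes, in edgeR unless DESeq2 is named.

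The mixed-cell libraries shNC 1, shNC 2, shSELP 1 and shSELP 2 held 2289, 2297, 2293 and 2293 cells and 22945972, 22626413, 17398121 and 25589350 UMIs (unique molecular identifiers, the counted RNA molecules), and values for 4 libraries are always given in that order. The CD11b+ libraries held 2862 cells each, with 12628177 UMIs under shNC and 11445676 under shSELP. Selp itself, the targeted gene, had 17, 25, 21 and 21 UMIs in the mixed-cell libraries and 4 and 4 in the CD11b+ libraries. Among tumor-gated cells it had 0, 0, 0 and 1 UMI, where 3 counts would be 0.762, 1.06, 4.87 and 5.25 CPM (counts per 1000000 UMIs). These counts are too low to detect a knockdown, so each library was placed in its group by label alone. Endothelial-gated cells held 8, 12, 15 and 7 of the Selp UMIs. Library shSELP 1 stood apart from the others: it had the lowest median depth, 5887 UMIs per deposited cell against 9015, 7579 and 9388, and it held 335 endothelial-gated and 77 mural-gated cells, against 20, 31 and 73 and against 5, 9 and 25. Cell barcodes found in more than 1 library numbered 5 among the mixed-cell libraries and 3 among the CD11b+ libraries.

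Cells were assigned to 7 classes by fixed markers that include none of the 9 genes. The macrophage/monocyte gate held 759, 712, 470 and 763 cells, the microglia gate 95, 112, 271 and 122, the dendritic gate 77, 97, 57 and 107 and the tumor gate 266, 191, 56 and 73. The receiving classes were the T gate with 456, 459, 414 and 464 cells and the NK gate with 35, 85, 30 and 51. The neutrophil gate was small and shallow, with 8, 12, 23 and 20 cells of median depth 1582, 1714, 2147 and 2642 UMIs. Median depths were 10346, 9462, 9007 and 15633 UMIs in the macrophage/monocyte gate, 9148, 13520, 7723 and 9663 in the microglia gate, 15465, 15773, 10279 and 4630 in the tumor gate, 2461, 3430, 3366 and 5327 in the NK gate and 5622, 5622, 4922 and 7514 in the T gate. Genes leading each gate over the others included Lyz2 for macrophages and monocytes, P2ry12 and Crybb1 for microglia, and Ccr7 and Fscn1 for dendritic cells. They also included H19, Prph and Moxd1 for tumor cells, Cd3g, Trbc2 and Icos for T cells, and Klrb1c and Gzmc for NK cells. Of these, P2ry12, Ccr7, H19, Prph, Cd3g, Trbc2 and Klrb1c were gating markers, so that their lead follows from the gate itself. Lyz2, Crybb1, Fscn1, Moxd1, Icos and Gzmc were not. Levels below are CPM of the UMIs summed over a class in a library, and each mean over the 4 libraries carries its SD (n = 4). Shares of cells with a UMI were taken after each cell was thinned to 2000 UMIs, which left out 158, 170, 241 and 198 cells of the 4 libraries with fewer, and intervals and floors cover counting error only.

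**Figure D1:**
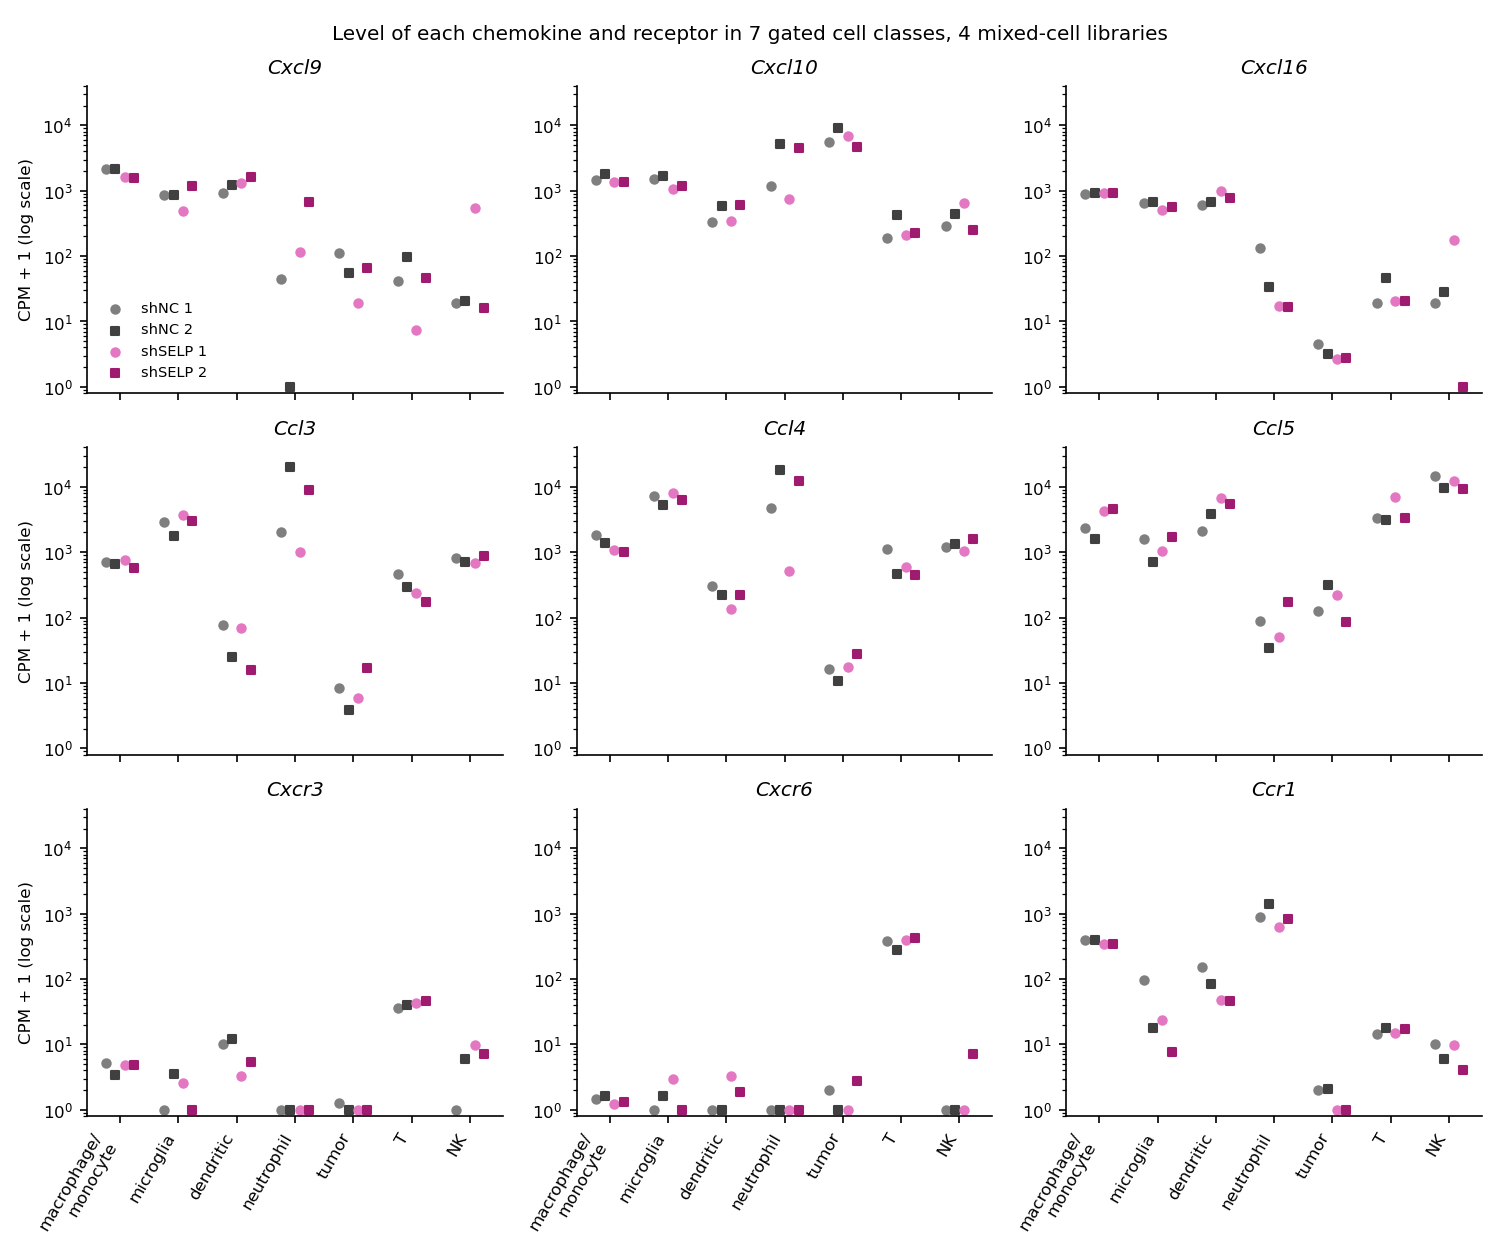
CPM plus 1 on a log axis for each of the 9 genes in 7 gated classes, with 1 point for each of the 4 mixed-cell libraries. Cxcr6 is near 0 outside the T gate, Cxcl16 is highest in the macrophage/monocyte, dendritic and microglia gates, and Cxcl10 is highest in the tumor gate.

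Among the 7 classes, Cxcl9, the interferon-gamma-induced ligand of Cxcr3, was highest by mean in the macrophage/monocyte gate. Mural-gated cells, which lie outside these classes and are described under other observations, had more Cxcl9 in every library except shSELP 1. The macrophage/monocyte gate had 2163 and 2121 CPM in the shNC libraries and 1629 and 1545 CPM in the shSELP libraries. The shSELP pair lay below the shNC pair there, and in the microglia gate, at 855, 856, 489.8 and 1190.2 CPM, the groups overlapped. Dendritic cells carried 938, 1242, 1299 and 1601 CPM, with both shSELP libraries above both shNC libraries. In their mature Ccr7+ and type 1 subsets taken apart the groups overlapped. Mature cells ranged from 673 to 1445 CPM under shNC and from 579 to 1743 CPM under shSELP. Type 1 cells ranged from 460 to 1109 CPM and from 596 to 1180 CPM. By mean, the order of classes was 1864 ± 323 CPM in macrophages and monocytes, 1269.9 ± 272 in dendritic cells, 848 ± 286 in microglia, 209.9 ± 317 in neutrophils, 151 ± 266 in NK cells, 61.3 ± 37.5 in tumor cells and 47.2 ± 36.99 in T cells, and in each neighbouring pair the library ranges overlapped. The NK mean rests on 1 cell of shSELP 1 with 62 of the 63 Cxcl9 UMIs there: NK cells had 18.2, 19.7, 549 and 15.1 CPM, and shSELP 1 had 10.03 CPM without that cell. Across the span the tumor gate was lower than the macrophage/monocyte gate (log2 fold change -5.297, SE 0.835, adjusted p = 1.22e-05), a fold of -5.99 without shNC 1. The dendritic gate did not pass that test (log2 fold change -0.701, adjusted p = 0.449), nor did the microglia gate (log2 fold change -1.26, adjusted p = 0.169). Of all Cxcl9 UMIs in the mixed-cell libraries, 61.3% lay in the macrophage/monocyte gate. The thinned share of macrophages and monocytes with a Cxcl9 UMI was 58.9%, 59.1%, 47.5% and 57.6%, against 4.03%, 4.09%, 0.752% and 2.83% in T cells, a class that should lack it. Unthinned shares were 76.9%, 72.8%, 63.6% and 78.5% and 9.65%, 8.93%, 3.14% and 9.27%. Expression was uneven among cells: the 10% of macrophages and monocytes with the most Cxcl9 held 49.1%, 48.03%, 60.2% and 50.7% of its UMIs, and the top 10% of microglia held 68.3%, 76.7%, 90.5% and 90.01%.

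Between the groups, Cxcl9 in macrophages and monocytes did not pass the test (log2 fold change -0.37, SE 0.0942, adjusted p = 0.106), and the difference between the dendritic and the macrophage/monocyte responses did not either (log2 fold change 0.75, adjusted p = 0.145), though it did without shNC 2 (0.98, adjusted p = 3.47e-05). In the CD11b+ libraries the macrophage/monocyte gate held 1514 CPM under shNC and 2079.8 CPM under shSELP, a ratio of 1.37 (1.34 to 1.41), where the bounds are the 95% exact counting interval. That ratio lies above 1, while the mixed-cell libraries of the same gate had lower Cxcl9 CPM under shSELP. CD11b+ microglia gave the opposite order, with 980.2 CPM under shNC and 758 CPM under shSELP and a ratio of 0.773 (0.701 to 0.853). The 12 macrophage/monocyte markers in that microglia gate summed to 1398 and 1064 CPM, led by Ms4a7 with 1 and 2 at 0, and 13 handling genes, which respond to dissociation, to 7344 and 5596 CPM. In CD11b+ macrophages and monocytes the handling genes summed to 7472 CPM under shNC and 5457 CPM under shSELP. The part of these lists in either Cxcl9 ratio was not tested.

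Cxcl10, the second interferon-induced Cxcr3 ligand, was distributed differently: it was highest in tumor cells, at 5632 and 9023 CPM in the shNC libraries and 6810.0 and 4633 CPM in the shSELP libraries. The groups overlapped there. Macrophages and monocytes had 1441, 1782, 1378 and 1364 CPM, with both shSELP libraries below both shNC libraries, and microglia had 1486, 1654, 1057 and 1173 CPM, again with the shSELP libraries lower. The macrophage/monocyte markers in the microglia gate, at 1032, 815, 575 and 279.6 CPM, were lower there too and the handling genes, at 8954, 6395, 12605 and 10815 CPM, higher, and their part in microglial Cxcl10 was not tested. In order of the mean, Cxcl10 stood at 6524 ± 1888 CPM in tumor cells, 2876 ± 2237 in neutrophils, 1491 ± 197 in macrophages and monocytes, 1343 ± 276 in microglia, 467 ± 151 in dendritic cells, 408 ± 183 in NK cells and 264 ± 109 in T cells. Only microglia and dendritic cells were neighbours whose library ranges did not overlap. The tumor gate exceeded the macrophage/monocyte gate (log2 fold change 1.63, SE 0.368, adjusted p = 5.48e-04) and the dendritic gate was lower than it (log2 fold change -1.86, adjusted p = 4.36e-04). Microglia did not differ from macrophages and monocytes by that test (log2 fold change -0.24, adjusted p = 0.652). Of the Cxcl10 UMIs of each library, tumor cells held 49.8%, 44.3%, 19.8% and 8.83% and macrophages and monocytes 27.1%, 25.6%, 31.6% and 56.9%, so that the tumor gate held more in both shNC libraries and less in both shSELP libraries, which also had fewer tumor-gated cells. A Cxcl10 UMI was found in 89.1%, 93.6%, 82.2% and 82.7% of thinned tumor cells and in 27.7%, 42.5%, 22.3% and 29.4% of thinned T cells, a class that should lack it. Without thinning the shares were 97.4%, 98.95%, 89.3% and 93.2% and 54.4%, 77.1%, 39.4% and 64.7%. The Cxcl10 levels of the classes were not corrected for this background.

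Among thinned macrophages and monocytes, Cxcl10 was found more often in cells with a Cxcl9 UMI than in cells without, by 62.9% against 45.3%, 62.98% against 52.8%, 57.5% against 48.8% and 56.1% against 46.9% in the 4 libraries. Over the 28 class-by-library sums the levels of Cxcl9 and Cxcl10 had a Pearson r of 0.0439, a description over points that share libraries and depth. Cxcl10 did not pass the test between the groups in macrophages and monocytes (log2 fold change -0.17, adjusted p = 0.545), in microglia (log2 fold change -0.54, SE 0.146, adjusted p = 0.0731) or in tumor cells (log2 fold change -0.4, adjusted p = 0.5497). The microglial value passed in 4 of 11 alternatives, among them without shSELP 2, at -0.65 with adjusted p = 0.00436. In CD11b+ cells the Cxcl10 ratio was 1.02 (0.992 to 1.05) in macrophages and monocytes and 1.35 (1.25 to 1.45) in microglia.

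Cxcl9 and Cxcl10 are neighbours on chromosome 5 of GRCm38, both on the minus strand, at 92321347 to 92328079 and 92346638 to 92348889, with 18558 bases between them. Cxcl11, the third ligand of Cxcr3, lies next to them, is annotated as a polymorphic pseudogene and was in neither table. Promoter sequences from RefSeq matched 6 of the 9 genes, with no entry for Cxcl16, Ccl4 or Ccl5. The 250 bases before the start of Cxcl9 and Cxcl10 were searched on both strands for GAAA followed after any 2 bases by GAAA (the core of an interferon-stimulated response element) and GGGANTTCC (a kappaB-like site), and are printed because these neighbours differ in the class that carries them. Capitals mark the matches: GGGATTTCC starting at base -42 in Cxcl9, and GAAAGTGAAA at -213 and GGGACTTCC at -103 in Cxcl10. The sequences are from GRCm38.p6, chr5:92328080-92328329 for Cxcl9 and chr5:92348890-92349139 for Cxcl10, both from the minus strand. Neither motif matched in Cxcr3, Cxcr6, Ccl3 or Ccr1. A further motif searched, TTCNNNGAA, matched in none of the 6 and in 7.02% of all promoters. Among 32851 promoters of that length, 2.98% held the first motif and 1.43% the second.
Cxcl9: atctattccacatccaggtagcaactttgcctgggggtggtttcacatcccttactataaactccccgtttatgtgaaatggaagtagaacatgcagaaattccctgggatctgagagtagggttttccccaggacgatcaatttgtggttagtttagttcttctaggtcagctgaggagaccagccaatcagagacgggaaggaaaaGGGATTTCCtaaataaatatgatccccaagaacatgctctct
Cxcl10: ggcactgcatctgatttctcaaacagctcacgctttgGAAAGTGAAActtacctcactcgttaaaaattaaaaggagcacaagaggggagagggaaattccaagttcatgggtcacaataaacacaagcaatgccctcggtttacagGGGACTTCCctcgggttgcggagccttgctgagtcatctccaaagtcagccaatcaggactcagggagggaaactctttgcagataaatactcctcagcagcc

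Cxcl16, a chemokine made as a membrane-bound protein that also acts as a scavenger receptor, was a myeloid gene here. Macrophages and monocytes had 894, 934, 917 and 909 CPM, and the groups overlapped. Dendritic cells had 609 and 677 CPM in the shNC libraries and 999 and 762 CPM in the shSELP libraries, with both shSELP libraries above both shNC libraries, and microglia had 639.5, 675, 504 and 566 CPM, with both below. The macrophage/monocyte markers in the microglia gate, given for Cxcl10, were lower in the same libraries, and their part in microglial Cxcl16 was not tested. Means ran from 913 ± 16.5 CPM in macrophages and monocytes through 762 ± 169.8 in dendritic cells and 596 ± 76.3 in microglia to 54.9 ± 80.4 in NK cells, 49.02 ± 55.3 in neutrophils, 25.8 ± 13.4 in T cells and 2.26 ± 0.887 in tumor cells. Neighbours were apart in their library ranges at the step from microglia to NK cells and from T cells to tumor cells, and overlapped elsewhere. In NK cells of shSELP 1 all 20 Cxcl16 UMIs came from 1 cell. The tumor gate lay far below the macrophage/monocyte gate (log2 fold change -8.82, SE 0.546, adjusted p = 7.71e-12), by -9.58 without shNC 1 and by -7.35 in thinned cells. The dendritic gate (log2 fold change -0.43, adjusted p = 0.322) and the microglia gate (log2 fold change -0.71, adjusted p = 0.0936) did not pass. In thinned macrophages and monocytes 77.5%, 79.7%, 82.2% and 80.4% of cells had a Cxcl16 UMI, against 2.37%, 2.95%, 1.75% and 2.18% of T cells. Unthinned, these shares were 96.4%, 95.5%, 95.96% and 97.6% and 5.702%, 7.41%, 3.38% and 5.17%. The top 10% of macrophages and monocytes held 24.1%, 25.1%, 24.1% and 22% of its UMIs. The 3 between-group values were 0.06 in macrophages and monocytes (adjusted p = 0.847), 0.44 in dendritic cells (adjusted p = 0.567) and -0.34 in microglia (adjusted p = 0.269), as log2 fold changes, and none passed. The CD11b+ ratio in macrophages and monocytes was 0.966 (0.934 to 0.999).

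Ccl3 and Ccl4, the inflammatory chemokines MIP-1alpha and MIP-1beta, lie 13228 bases apart on chromosome 11 and were carried by the same classes. Microglia had 2866 and 1790.5 CPM in the shNC libraries and 3762 and 2949 CPM in the shSELP libraries of Ccl3, with both shSELP libraries above both shNC libraries. For Ccl4, microglia had 7163 and 5250.4 CPM in the shNC libraries and 7923 and 6348 CPM in the shSELP libraries, and the groups overlapped. In macrophages and monocytes Ccl3 was lower and even, at 694, 657, 745 and 578 CPM. Ccl4 stood there at 1836 and 1390.2 CPM in the shNC libraries and 1085 and 992 CPM in the shSELP libraries, with both shSELP libraries below both shNC libraries. The highest means were in the neutrophil gate, but they rested on 8 to 23 shallow cells and spread widely, with Ccl3 at 2011, 20249, 989 and 8894 CPM and Ccl4 at 4808, 18270.0, 511 and 12451 CPM. The order for Ccl3 was 8036 ± 8866 CPM in neutrophils, 2842 ± 809 in microglia, 769 ± 96.9 in NK cells, 669 ± 70.3 in macrophages and monocytes, 291 ± 127 in T cells, 45.4 ± 30.6 in dendritic cells and 7.701 ± 5.67 in tumor cells. Ccl3 ranges overlapped between neutrophils and microglia, NK cells and macrophages, and dendritic and tumor cells. The order for Ccl4 was 9010.1 ± 7905 CPM in neutrophils, 6671 ± 1145 in microglia, 1326 ± 380.5 in macrophages and monocytes, 1279.9 ± 231 in NK cells, 649.8 ± 309.8 in T cells, 220.4 ± 69.8 in dendritic cells and 16.8 ± 6.93 in tumor cells. Its ranges overlapped between neutrophils and microglia and along the steps from macrophages to NK cells and on to T cells.

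Microglia exceeded macrophages and monocytes in Ccl3 (log2 fold change 2.01, SE 0.607, adjusted p = 0.0134) and in Ccl4 (log2 fold change 2.296, SE 0.554, adjusted p = 0.00274). Without shSELP 2 the Ccl3 contrast was 1.92 with adjusted p = 0.0886. Neutrophils exceeded macrophages and monocytes in Ccl3 (log2 fold change 2.98, adjusted p = 0.00245), a call lost without shNC 2 (2.12) or without shSELP 2 (2.64). The same held for Ccl4 (log2 fold change 2.12, adjusted p = 0.0109), at 1.59 without shNC 2, 1.55 without shSELP 2 and 0.84 under the stricter gate. T cells were lower than macrophages and monocytes in Ccl3 (log2 fold change -1.56, adjusted p = 0.0295) and Ccl4 (log2 fold change -1.35, adjusted p = 0.0354). Each of these T cell contrasts passed in only 4 of 9 alternatives. Ccl3 lost its call without TMM scaling (-1.24), without shNC 2 (-1.58), without shSELP 1 (-1.45), without shSELP 2 (-1.46) and in thinned cells (-1.52). Ccl4 lost it without TMM scaling (-1.02), without shNC 1 (-1.52), without shNC 2 (-1.197), without shSELP 2 (-1.33) and in thinned cells (-1.19). Of thinned microglia 77.8%, 72.5%, 85.1% and 75.2% had a Ccl3 UMI, against 2.82%, 0.578%, 2.22% and 3.85% of tumor cells. For Ccl4 the shares were 86.7%, 81.4%, 88.1% and 88.1% and 3.63%, 0.578%, 0% and 1.92%. Unthinned microglial shares were 88.4%, 89.3%, 94.5% and 79.5% for Ccl3 and 89.5%, 89.3%, 94.8% and 89.3% for Ccl4, and unthinned tumor shares 10.2%, 4.19%, 5.36% and 9.59% and 21.4%, 12.6%, 17.9% and 16.4%. Ccl3 and Ccl4 were found together: among thinned macrophages and monocytes, Ccl4 was present in cells with against cells without a Ccl3 UMI in 74.9% against 50.3%, 70.8% against 44.8%, 63.6% against 38.3% and 67.2% against 33.3%. In T cells, Ccl3 was confined to few cells, the top 10% holding 87.9%, 95.1%, 84.6% and 88.3% of its UMIs.

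Between the groups, Ccl4 in macrophages and monocytes did not pass in edgeR (log2 fold change -0.58, SE 0.142, adjusted p = 0.115) and passed in 6 of 11 alternatives. These were DESeq2 (adjusted p = 0.0166), no filter on low counts (4.51e-06), no TMM scaling (0.0499), the replicate block (0.00138), thinned cells (0.00418) and leaving out shNC 2 (-0.79, adjusted p = 8.74e-04). The Ccl4 value ran from -0.79 to -0.33 over the alternatives and was smallest without shNC 1 (adjusted p = 0.409). Ccl3 in that gate had a log2 fold change of 0.0277 (adjusted p = 0.958), with negative values of -0.0344 without shNC 2 and -0.15 without shSELP 1. In microglia neither Ccl3 (log2 fold change 0.48, adjusted p = 0.3397) nor Ccl4 (log2 fold change 0.15, adjusted p = 0.7002) passed. The Ccl3 value passed in 3 of 11 alternatives, at 0.61 with adjusted p = 0.00613 without shSELP 2, and the Ccl4 value -0.0828 without shNC 2. The Ccl4 response differed between the classes, microglia minus macrophages and monocytes (log2 fold change 0.71, SE 0.175, adjusted p = 0.00509), and lost that call without shNC 1 (adjusted p = 0.127) or without shNC 2 (adjusted p = 0.186). In T cells Ccl3 had 466, 295, 232 and 172 CPM, both shSELP libraries below both shNC libraries, and did not pass (log2 fold change -0.9, adjusted p = 0.507). That separation rests on 1 cell of shNC 2, which held 520 of the 1039 Ccl3 UMIs of its gate: with the highest cell of each library left out, Ccl3 was at 416, 148.8, 198 and 149.1 CPM and the groups overlapped. The Ccl3 value of all T cells passed with no filter on low counts (-0.92), without shNC 1 (-0.54), without shNC 2 (-1.199) and without shSELP 1 (-1.17). CD11b+ macrophages and monocytes had 1455 CPM under shNC and 1029.7 CPM under shSELP of Ccl4, a ratio of 0.708 (0.687 to 0.729), and CD11b+ microglia a ratio of 1.004 (0.956 to 1.06). For Ccl3 the CD11b+ ratios were 0.888 (0.849 to 0.928) and 0.949 (0.877 to 1.03).

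A list of 13 handling and immediate early genes, which respond to dissociation, moved with microglial Ccl3. Its summed level in microglia was 8954, 6395, 12605 and 10815 CPM, its most abundant gene was Junb, and none of its genes was at 0. In the shSELP libraries 13 of 13 were higher by fold, with Egr1 (log2 fold change 1.17, adjusted p = 0.0113) and Jun (log2 fold change 1.03, adjusted p = 0.0319) past the test, where 4066 of 8030 genes were higher and 2.38% were called. The 12 macrophage/monocyte markers also shifted in that gate, from 1032 and 815 CPM under shNC to 575 and 279.6 CPM under shSELP, led by Tgfbi, Ms4a7, Ms4a6c and Ms4a6c, with 2, 2, 0 and 0 markers at 0. In the CD11b+ libraries the handling list was lower under shSELP: its sum was 7472 CPM under shNC and 5457 CPM under shSELP in macrophages and monocytes, where Ccl4 was also lower, and 11 of 13 genes were lower and 0 and 0 were at 0. In CD11b+ microglia the sum was 7344 and 5596 CPM, where 7 of 13 were lower and 1 and 0 were at 0, and Junb led in both. In mixed-cell macrophages and monocytes the handling sum was 5861, 6012, 6162 and 6613 CPM, also led by Junb with none at 0. By the interaction test, microglia minus macrophages and monocytes, 4 of 13 handling genes had a higher response and 1 a lower. Among all genes 1.35% were called higher and 1.97% lower. The part of either list in the Ccl3 and Ccl4 values was not tested.

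Ccl5, a ligand of Ccr1 and Ccr3 that memory and cytotoxic lymphocytes store and secrete, was carried by lymphocytes and myeloid cells alike. NK cells had 14417 and 9680.3 CPM in the shNC libraries and 12456 and 9398 CPM in the shSELP libraries, and the groups overlapped. Macrophages and monocytes had 2341 and 1606 CPM in the shNC libraries and 4312 and 4647 CPM in the shSELP libraries, the lowest shSELP library lying above the highest shNC library. Dendritic cells followed the same pattern, at 2073 and 3781 CPM under shNC and 6721 and 5414 CPM under shSELP. T cells had 3305, 3051, 6973 and 3373 CPM, where shSELP 1 stood high and shSELP 2 lay just above shNC 1. Of the T cells 243, 215, 244 and 146 were CD8 and 90, 103, 83 and 179 conventional CD4 cells. The part of this make-up in the T cell values was not tested. In microglia, at 1590.3, 709, 1031 and 1702 CPM, the groups overlapped. Means were 11488 ± 2391 CPM in NK cells, 4497 ± 2014 in dendritic cells, 4176 ± 1870.1 in T cells, 3226 ± 1484 in macrophages and monocytes, 1258 ± 469 in microglia, 184 ± 99.9 in tumor cells and 85 ± 61.2 in neutrophils. Ranges were apart between NK and dendritic cells and between microglia and tumor cells, and overlapped between the other neighbours. Macrophages and monocytes held 46.4%, T cells 22.4% and cells of ambiguous gate 15.8% of all Ccl5 UMIs of these mixed suspensions. By library the macrophage/monocyte share was 44.9%, 33.7%, 36.2% and 57.9% and the T cell share 25.7%, 27.2%, 30.3% and 14.5%. NK cells exceeded macrophages and monocytes (log2 fold change 1.57, SE 0.432, adjusted p = 0.00625) and T cells (log2 fold change 1.53, adjusted p = 0.0225), but without shNC 1 neither passed, at 1.28 and 1.29, nor did the contrast with T cells without shNC 2 (1.44). Microglia were lower than macrophages and monocytes (log2 fold change -1.39, adjusted p = 0.0155), except without shSELP 1 (-1.16, adjusted p = 0.124). Dendritic cells did not differ from macrophages and monocytes by the test (log2 fold change 0.32, adjusted p = 0.5897), nor did T cells (log2 fold change 0.0442, adjusted p = 0.937), whose value was -0.13 without shSELP 1.

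Within the lymphocytes, Ccl5 was a CD8 T cell and NK cell gene. CD8 T cells had 4675 and 4837 CPM under shNC and 11511 and 7327 CPM under shSELP, both shSELP libraries above both shNC libraries. CD8 exceeded conventional CD4 T cells (log2 fold change 4.15, SE 0.6798, adjusted p = 0.00868), with adjusted p = 0.0762 without shNC 1 and 0.07202 without shNC 2. Thinned shares of cells with a Ccl5 UMI were 81.6%, 70.8%, 92.4% and 77.6% in CD8 T cells, 24.1%, 17.8%, 23.2% and 23.5% in conventional CD4 T cells and 11.3%, 17.3%, 20% and 11.5% in tumor cells, which should lack it. Thinned NK shares were 96.3%, 84.4%, 100% and 79.6%. Among dendritic cells Ccl5 separated the mature Ccr7+ cells from type 1 cells (log2 fold change 7.98, SE 0.297, adjusted p = 2.84e-13), a contrast chosen after seeing the data because the type 2 gate held 0 to 3 cells per library. Mature dendritic cells had 4992 and 7878 CPM under shNC and 11952 and 10376 CPM under shSELP. In macrophages and monocytes 63.1%, 56.8%, 77.9% and 81.3% of thinned cells had a Ccl5 UMI, with unthinned shares of 79.7%, 73.3%, 87.9% and 92.3% beside 40.98%, 41.9%, 35.7% and 27.4% in tumor cells.

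Ccl5 was the only one of the 9 genes that passed the test between the groups in a planned class: it rose in macrophages and monocytes under shSELP (log2 fold change 1.24, SE 0.192, adjusted p = 0.04901). The call did not hold without shSELP 1 (1.31, adjusted p = 0.442), without shSELP 2 (1.18, adjusted p = 0.4701) or with Scrublet's doublet calls left out (1.25, adjusted p = 0.0571), while the fold stayed close. The response differed from that of microglia, microglia minus macrophages and monocytes (log2 fold change -1.01, SE 0.205, adjusted p = 0.00202). The macrophage/monocyte markers in the microglia gate, given above for Ccl3 and Ccl4, were also lower under shSELP. The handling genes, whose sum in microglia was higher under shSELP, differed in response too. Of these 13 genes, 4 were called higher in microglia and 1 lower, where 1.35% and 1.97% of all genes were called. The part of either list in the Ccl5 difference was not tested. Without shNC 1 that difference was -0.71 with adjusted p = 0.127, and without TMM scaling -0.89 with adjusted p = 0.154. Microglia alone gave a Ccl5 log2 fold change of 0.21 (adjusted p = 0.913), with 0.93 without shNC 1, -0.29 without shNC 2 and -0.23 without shSELP 2. In dendritic cells Ccl5 did not pass (log2 fold change 1.05, adjusted p = 0.472), and it did with no filter on low counts (1.03), without shNC 1 (0.698) or without shNC 2 (1.51). The dendritic response did not differ from that of macrophages and monocytes (log2 fold change -0.21, adjusted p = 0.998), at -0.91 without shNC 1 and 0.51 without shNC 2. In T cells the Ccl5 value was 0.73 (adjusted p = 0.766) and passed in 3 of 11 alternatives: without shNC 1 (0.78, adjusted p = 0.00469), without shNC 2 (0.67, adjusted p = 0.0161) and without shSELP 2 (1.18, adjusted p = 8.59e-08). Without shSELP 1 it was 0.0657 (adjusted p = 0.996). NK cells gave -0.17 (adjusted p = 0.995), and 0.11 without shNC 1.

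Lymphocyte markers were near 0 in the macrophage/monocyte sums that carried this change. These markers, like the dendritic ones, also set the gates, so that low sums follow in part from the gate itself. The 8 T cell markers summed to 10.97, 8.595, 6.38 and 7.35 CPM, with Trac the most abundant and 0, 0, 1 and 0 at 0. The 8 NK markers summed to 1.55, 1.82, 1.23 and 1.92 CPM, led by Klrb1c, Klrb1c, Klra4 and Klra4, with 3, 5, 7 and 5 at 0. The 8 dendritic markers summed to 123, 130.0, 121 and 90.8 CPM, led by Naaa with none at 0, with the shSELP pair below the shNC pair. The part of other cell types in the Ccl5 change was not tested. Among macrophages and monocytes, cells with a Ccl5 UMI also had Cxcl9 more often than cells without, at 65.8% against 46.9%, 65.5% against 50.7%, 50.1% against 38.2% and 60.1% against 46.8%.

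In the CD11b+ libraries Ccl5 was higher under shSELP in macrophages and monocytes, and not in microglia or dendritic cells. Macrophages and monocytes there had 896 CPM under shNC and 1978 CPM under shSELP. The ratio was 2.21 (2.14 to 2.27) by counting error only. The handling genes summed in that gate to 7472 CPM under shNC and 5457 CPM under shSELP, and their part in the Ccl5 ratio was not tested. CD11b+ microglia had 906 CPM under shNC and 906 CPM under shSELP, a ratio of 1.001 (0.9103 to 1.099). CD11b+ dendritic cells, 48 and 33 in number, had a Ccl5 ratio of 0.971 (0.883 to 1.07), while both mixed-cell shSELP libraries lay above both shNC libraries in that gate.

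**Figure D2:**
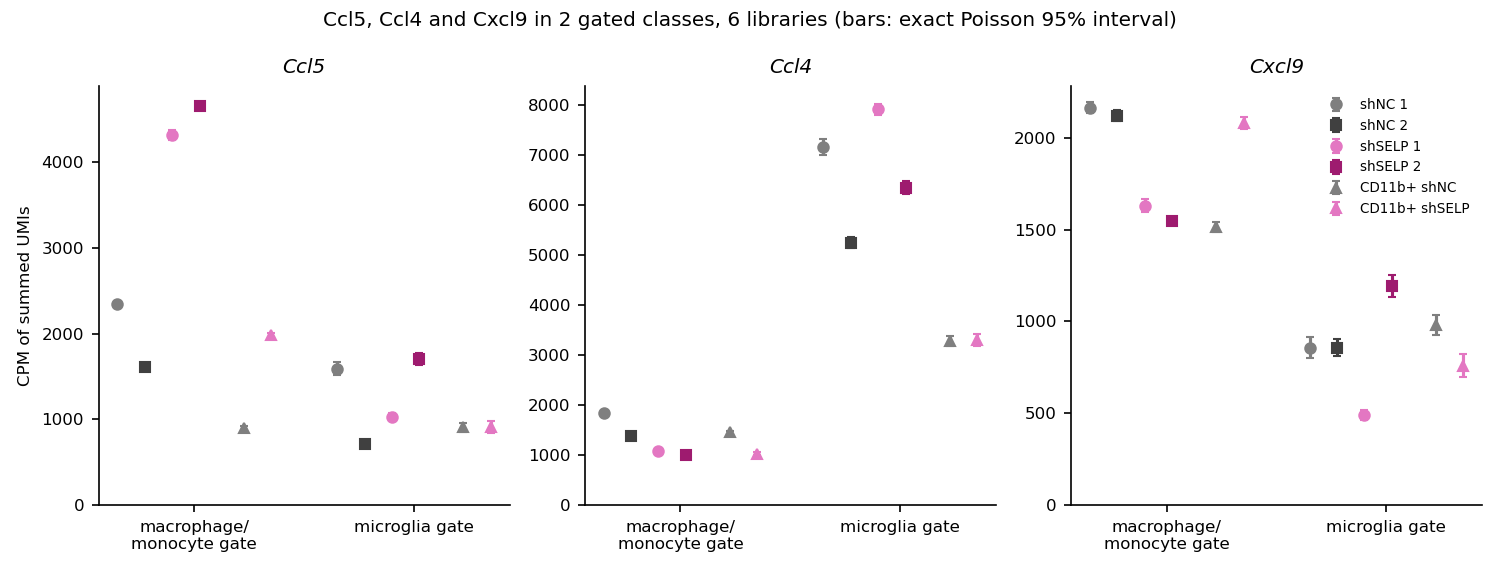
CPM of Ccl5, Ccl4 and Cxcl9 in the macrophage/monocyte and microglia gates of all 6 libraries, with exact Poisson 95% intervals as bars. In the macrophage/monocyte gate Ccl5 is higher and Ccl4 lower in each shSELP library than in the shNC libraries of its own experiment, while Cxcl9 is lower in the mixed-cell and higher in the CD11b+ experiment.

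Cxcr3, the receptor of Cxcl9 and Cxcl10, was sparsely counted. T cells had 35.1, 38.4, 42.5 and 45.3 CPM, both shSELP libraries above both shNC libraries by a small margin. T cells at 40.3 ± 4.505 CPM were apart from dendritic cells at 6.71 ± 4.11, and the lower classes overlapped with their neighbours: NK cells 4.92 ± 3.65, macrophages and monocytes 3.56 ± 0.782, microglia 1.01 ± 1.22, tumor cells 0.0635 ± 0.127 and neutrophils 0. T cells exceeded macrophages and monocytes (log2 fold change 3.15, SE 0.213, adjusted p = 1.15e-16), and NK cells were lower than T cells (log2 fold change -2.91, adjusted p = 5.79e-05). The T gate held 62.4% of all 893 Cxcr3 UMIs. A Cxcr3 UMI was seen in 6.87%, 10%, 7.27% and 10.2% of thinned and 18.6%, 20.3%, 18.6% and 23.3% of unthinned T cells. Neutrophils, the planned background, had no Cxcr3 UMI, but only 2, 3, 16 and 15 of them were left after thinning, too few to give a background. In tumor cells, taken in their place after seeing the data, Cxcr3 was found in 0%, 0%, 0% and 0% of 248, 173, 45 and 52 thinned cells and in 0.376%, 0%, 0% and 0% of unthinned cells. Regulatory T cells, marked by Foxp3, had 114, 60.3, 34.2 and 93.8 CPM and exceeded conventional CD4 T cells (log2 fold change 1.28, SE 0.339, adjusted p = 0.0235), but not without shNC 2 (adjusted p = 0.0638) or shSELP 2 (0.98, adjusted p = 0.2298). CD8 T cells did not differ from conventional CD4 T cells in Cxcr3 (log2 fold change 0.21, adjusted p = 0.725). The groups did not differ in T cells by the test (log2 fold change 0.27, adjusted p = 0.637). In the CD11b+ libraries all cells together held 39 and 21 Cxcr3 UMIs.

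Cxcr6, the receptor of Cxcl16 and a mark of tissue-resident T cells, was nearly confined to T cells. It reached 386 and 279.8 CPM in the shNC libraries and 393 and 421 CPM in the shSELP libraries there, both shSELP libraries above both shNC libraries. T cells at 370.0 ± 62.1 CPM stood apart from all other classes, which were at 1.51 ± 3.02 in NK cells, 0.781 ± 1.06 in dendritic cells, 0.691 ± 0.852 in tumor cells, 0.647 ± 0.9297 in microglia, 0.402 ± 0.175 in macrophages and monocytes and 0 in neutrophils. Of these lower neighbours only macrophages and neutrophils were apart in range. T cells held 96.2% of all Cxcr6 UMIs and exceeded macrophages and monocytes (log2 fold change 9.32, SE 0.252, adjusted p = 9.78e-30), by 8.49 in thinned cells. NK cells, with 0, 0, 0 and 6.05 CPM, were lower than T cells (log2 fold change -7.35, adjusted p = 2.72e-17), by -12.32 without shSELP 2, the only library with a Cxcr6 UMI in that gate. Thinned T cells had a Cxcr6 UMI in 43.1%, 36.1%, 46.9% and 43.4% of cells and thinned tumor cells in 0%, 0%, 0% and 0%. Unthinned shares were 66.4%, 56.2%, 69.3% and 68.3% in T cells and 1.504%, 0%, 0% and 1.37% in tumor cells. The few neutrophils had no Cxcr6 UMI. Neither CD8 (log2 fold change -0.11, adjusted p = 0.818) nor regulatory T cells (log2 fold change -0.73, adjusted p = 0.117) differed from conventional CD4 T cells by the test, the latter passing without shSELP 1 (-1.02). In CD8 T cells Cxcr6 was found with against without a Ccl5 UMI in 53.4% against 30.2%, 43.2% against 22.95%, 51.4% against 38.9% and 47.7% against 46.9% of thinned cells. Between Cxcr3 and Cxcr6 in T cells no such order held across libraries, at 13.8% against 45.3%, 31.8% against 36.6%, 51.7% against 46.5% and 36.2% against 44.2%. Cxcr6 did not pass between the groups in T cells (log2 fold change 0.31, SE 0.1399, adjusted p = 0.512), though it did without shNC 1 (0.55, adjusted p = 0.0252).

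Ccr1, a receptor of Ccl3 and Ccl5 on myeloid cells, was highest in the neutrophil gate, at 874, 1385, 627 and 819.8 CPM. Macrophages and monocytes had 392, 387, 345 and 341 CPM, both shSELP libraries slightly below both shNC libraries. Dendritic cells had 149 and 83.4 CPM under shNC and 47.1 and 44.9 CPM under shSELP, the shSELP libraries again lower. These came from 116, 67, 21 and 51 UMIs, of which the top 10% of cells held 70.7%, 85.1%, 100% and 100%. In mature dendritic cells the groups overlapped, from 41.96 to 254.8 CPM under shNC and from 31.8 to 55.3 CPM under shSELP. Type 1 cells had 4.42 and 92.8 CPM under shNC and 0 under shSELP. The means were 926 ± 324 CPM in neutrophils, 366 ± 26.9 in macrophages and monocytes, 81.1 ± 48.6 in dendritic cells, 34.9 ± 39.9 in microglia, 15.1 ± 1.81 in T cells, 6.44 ± 2.96 in NK cells and 0.519 ± 0.6 in tumor cells. Dendritic cells overlapped with microglia and microglia with T cells, and the other neighbours were apart in range. Neutrophils did not pass against macrophages and monocytes (log2 fold change 0.79, adjusted p = 0.161), and did in 4 of 9 alternatives, among them without TMM scaling (1.35). Microglia were lower than macrophages and monocytes (log2 fold change -3.75, SE 0.379, adjusted p = 1.08e-07), by -4.602 without shNC 1, as were dendritic cells (log2 fold change -2.43, adjusted p = 1.45e-05) and T cells (log2 fold change -4.93, adjusted p = 5.39e-10). Macrophages and monocytes had a Ccr1 UMI in 51.1%, 49.6%, 44.03% and 44.2% of thinned and 90.1%, 89.2%, 81.5% and 87.5% of unthinned cells, against 0.806%, 0%, 0% and 0% and 1.504%, 1.57%, 0% and 0% of tumor cells. Between the groups Ccr1 did not pass in macrophages and monocytes (log2 fold change -0.12, adjusted p = 0.643) or dendritic cells (log2 fold change -1.37, SE 0.312, adjusted p = 0.303), where it was -1.75 without shNC 2. The dendritic response did not differ from that of macrophages and monocytes (log2 fold change -1.25, adjusted p = 0.0872), except without shNC 2 (-1.62) or shSELP 1 (-1.28). The CD11b+ ratio in macrophages and monocytes was 1.06 (0.997 to 1.13).

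The genes whose levels followed each member most closely were sought by Pearson r of log2(CPM + 10) over the 28 class-by-library sums, among 4935 genes of at least 50 CPM in a class. These r values are descriptions over points that share libraries and depth. Cxcl9 was closest to Asah1 (r = 0.875), Acvrl1 (r = 0.869) and Prcp (r = 0.859). For Cxcl10 they were Irgm1 (r = 0.928), Gbp3 (r = 0.915) and Creb5 (r = 0.909), and for Cxcl16 Cd86 (r = 0.934), Npc2 (r = 0.925) and Spint1 (r = 0.921). Ccl3 and Ccl4 were closest to each other (r = 0.962), then Ccl3 to Cd84 (r = 0.894) and Abr (r = 0.884), and Ccl4 to Cd84 (r = 0.911) and Lcp2 (r = 0.895). Ccl5 was closest to Ptp4a2 (r = 0.889), Slc3a2 (r = 0.887) and Esyt1 (r = 0.876), and Ccr1 to Clec4n (r = 0.968), Trem1 (r = 0.956) and Wfdc17 (r = 0.955). Cxcr6 was closest to Cd6 (r = 0.996), Izumo1r (r = 0.995) and Cd3e (r = 0.995), the last being a marker of the T gate. Cxcr3 fell under the minimum level. Between members, Cxcl9 and Cxcl16 had r = 0.858 and Cxcl10 and Ccl5 had r = -0.734.

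Which of these genes differed between shSELP and shNC was asked in each class over all genes tested. In macrophages and monocytes 1 of 8 members tested was called, Ccl5, against 1.03% of 10584 genes (109, with 53 higher and 56 lower, or 40 and 85 without TMM scaling). Their median log2 fold change was -0.047, beside -0.0015 over all genes tested. Microglia had 0 of 7 called in edgeR, against 2.38% of 8030 genes, with 2 members and 1411 genes at unadjusted p under 0.05. Dendritic cells had 0 of 7 called, against 0% of 6209 genes in edgeR, with 528 genes and 5 members at unadjusted p under 0.05 and 0 genes called by DESeq2. T cells had 0 of 9 called, against 0.224% of 9822 genes, with 2 members and 922 genes at unadjusted p under 0.05. Tumor cells had 0 of 5 called against 0.0311% of 9631 genes, 3 genes in edgeR and 25 in DESeq2. In NK cells 0 of 4 were called, against 0% of 3031 genes, with 113 genes at unadjusted p under 0.05 and 0 in DESeq2. Neutrophils had 0 of 4 called, against 0% of 647 genes, with 54 genes at unadjusted p under 0.05 and 0 in DESeq2. Without TMM scaling the neutrophil median over all genes shifted by -0.31.

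**Figure D3:**
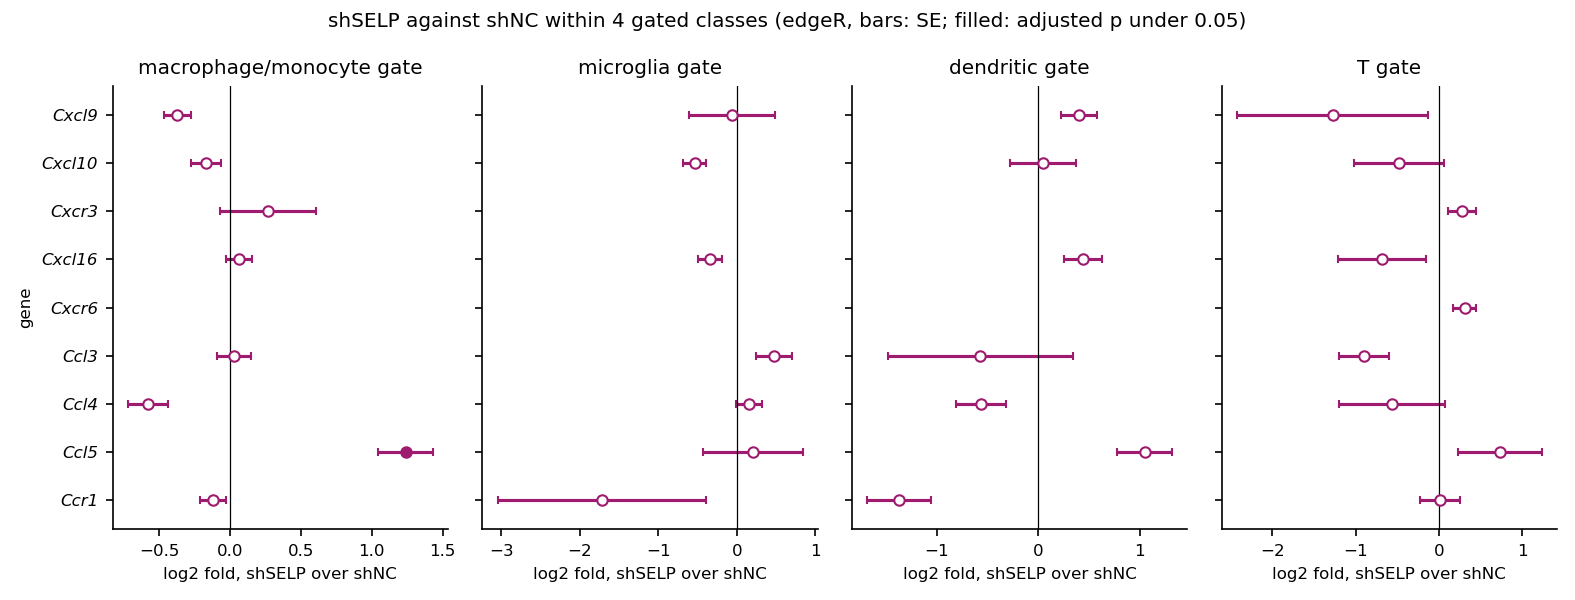
Log2 fold change, shSELP over shNC, of the genes tested in the macrophage/monocyte, microglia, dendritic and T gates, with SE as bars and each panel on its own axis. The only filled point, past the adjusted p threshold of 0.05, is Ccl5 in macrophages and monocytes, and a gene without a point, such as Cxcr6 outside T cells, was not tested there.

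Members whose shNC and shSELP libraries did not overlap were common, as were such genes in general. In macrophages and monocytes they were 5 of 8, Cxcl9, Cxcl10, Ccl4, Ccl5 and Ccr1, against 45.1% of all genes tested. Dendritic cells had 5 of 7, Cxcl9, Cxcl16, Ccl4, Ccl5 and Ccr1, against 40.5%. Microglia had 3 of 7, Cxcl10, Cxcl16 and Ccl3, against 47.8%, and T cells 4 of 9, Cxcr3, Cxcr6, Ccl3 and Ccl5, against 40.8%. Tumor cells had 1 of 5, Ccl4, against 46.9%, neutrophils 1 of 4 against 37.4% and NK cells 0 of 4 against 33.2%. These shares are near the background or rest on few genes.

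Subsets were fitted on their own after seeing the data. In the monocyte side of the macrophage/monocyte gate, with 464, 555, 300 and 610 cells, 2 of 8 members were called against 0.955% of 9840 genes. Ccl5 rose there, from 2309.8 and 1828 CPM to 4826 and 4662 CPM (log2 fold change 1.27, SE 0.124, adjusted p = 8.51e-04), with adjusted p = 0.0766 without shSELP 1 and 0.0899 without shSELP 2. Ccl4 fell, from 1667 and 1353 CPM to 976 and 967 CPM (log2 fold change -0.57, SE 0.119, adjusted p = 0.0478), a call lost without shNC 1 (-0.38), shSELP 1 (-0.56) or shSELP 2 (-0.56). In the rest of that gate 0 of 8 were called against 0.618% of 8737 genes, with 2 members and 1070 genes at unadjusted p under 0.05. Ccl5 stood there at 2378 and 1056 CPM under shNC and 3600.1 and 4599 CPM under shSELP (log2 fold change 1.299, adjusted p = 0.559), with 2.03 without shNC 1 and 0.81 without shNC 2. Mature dendritic cells had 0 of 6 called, against 0% of 4114 genes in edgeR, with 2 members and 243 genes at unadjusted p under 0.05. CD8 T cells had 0 of 8 called against 0.0974% of 8214 genes, with 4 members and 840 genes at unadjusted p under 0.05. Ccl5 in CD8 T cells was at 1.04 (adjusted p = 0.232) and passed in 3 of 4 fits with a library left out, at 1.09 without shNC 2, 0.646 without shSELP 1 and 1.35 without shSELP 2, but not without shNC 1 (0.99, adjusted p = 0.112). Conventional CD4 T cells had 0 of 9 against 0.0155% of 6444 genes and regulatory T cells 0 of 8 against 0% of 4174, with 180 genes at unadjusted p under 0.05. DESeq2 was not run on the subsets. Members not overlapping numbered 6 of 8 in the monocyte side, 5 of 8 in the rest, 4 of 8 in CD8 T cells and 2 of 6 in mature dendritic cells, against 43.8%, 43%, 42.4% and 35.8% of genes tested.

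Responses were compared between classes by an interaction test. Between microglia and macrophages, 1 member had a higher response in microglia, Ccl4, and 1 a lower, Ccl5, of 8 tested, against 1.35% and 1.97% of 10380 genes, 3.31% in all. The called genes split into 140 higher and 204 lower, and into 187 and 107 without TMM scaling, which shifted the median over all genes by 0.12. Between dendritic cells and macrophages 0 of 8 members were called, with 2 members and 642 genes at unadjusted p under 0.05, against 0.0804% of 9956 genes called, 0.0301% higher and 0.0502% lower (3 and 5 genes, or 8 and 5 without TMM scaling, with a median shift of 0.12).

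Across classes many members were called, as were many genes. Tumor cells against macrophages and monocytes had 1 member higher, Cxcl10, and 7 lower, of 9, against 41.3% and 31.6% of 9859 genes (72.8% in all), with a member median of -5.297 beside 0.17. T cells had 2 higher, Cxcr3 and Cxcr6, and 6 lower, against 33.4% and 32% of genes (65.4% in all), with medians of -1.56 and 0.0481. Dendritic cells had 0 higher and 4 lower, against 19.4% and 22.2% (41.6% in all). Microglia had 2 higher, Ccl3 and Ccl4, and 3 lower, against 19.4% and 17.1% (36.5% in all). Neutrophils had 2 higher, Ccl3 and Ccl4, and 3 lower, against 4.11% and 19.2% (23.3% in all). NK cells had 1 higher, Ccl5, and 4 lower, against 17.9% and 23.9% (41.8% in all). Against T cells, NK cells had 1 higher, Ccl5, and 2 lower, Cxcr3 and Cxcr6, against 5.69% and 7.14% (12.8% in all). Without TMM scaling the split of called genes into higher and lower went from 1915 and 2187 to 2442 and 1765 for dendritic cells, from 405 and 1896 to 626 and 802 for neutrophils, from 4069 and 3112 to 5626 and 2153 for tumor cells, from 3293 and 3158 to 4742 and 2323 for T cells and from 1762 and 2355 to 2527 and 1747 for NK cells. The medians over all genes shifted in that order by 0.15, 0.50, 0.48, 0.33 and 0.31.

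Within T cells, CD8 against conventional CD4 cells had 1 member higher, Ccl5, and 1 lower, Ccr1 (log2 fold change -2.28, adjusted p = 1.80e-05), of 9, against 7.29% and 8.72% of 6614 genes (16% in all). The gene split was 482 and 577, or 292 and 788 without TMM scaling, with a median shift of -0.10. Regulatory T cells had 1 member higher, Cxcr3, against 6.15% of genes higher and 5.78% lower (11.9% in all). Mature against type 1 dendritic cells had 3 of 5 members higher, Ccl5, Cxcl10 (log2 fold change 1.998, adjusted p = 3.00e-04) and Cxcl16 (log2 fold change 0.96, adjusted p = 3.76e-04), and Ccl4 lower (log2 fold change -3.04, adjusted p = 1.88e-09), against 23.7% and 22.2% of 2961 genes (45.9% in all). Cxcl9 did not differ between these cells (log2 fold change 0.31, adjusted p = 0.517), with -0.12 without shNC 2. The monocyte side of the macrophage/monocyte gate, against the rest, had Cxcl10 (log2 fold change 0.47, adjusted p = 1.88e-08) and Ccr1 (log2 fold change 0.31, adjusted p = 1.62e-04) higher. Ccl4 (log2 fold change -0.25, adjusted p = 6.32e-05) and Ccl3 (log2 fold change -0.21, adjusted p = 0.02401) were lower. Ccl3 lost its call without TMM scaling (-0.18), without shSELP 1 (-0.15) or without shSELP 2 (-0.16). These were 2 and 2 of 8, against 8.15% and 6.76% of 9009 genes (14.9% in all).

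In the CD11b+ libraries 1 of 7 members with at least 100 UMIs, Ccl5, had a ratio past 1.5 in macrophages and monocytes, where 12.7% of 7450 such genes lay above 1.5 or below its inverse. In microglia 1 of 7 was below the inverse, Ccr1, at 0.6504 (0.4104 to 1.01) from 73 and 30 UMIs, where 11% of 2429 genes lay above 1.5 or below its inverse. Over all CD11b+ cells 1 of 7 was past it, Ccl5, at 1.79 (1.76 to 1.83), beside 10.2% of 8569 genes. The median ratio over genes was 1.07 for all cells, 1.08 for macrophages and monocytes and 1.004 for microglia.

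Other genes of these pathways were described by fixed lists. Of 12 further genes of the same axes, 9 were tested between the groups in macrophages and monocytes and 0 were called in edgeR, with a median log2 fold change of -0.395. The 10 genes of interferon-gamma induction, from Ifng and its receptor chains to Irf1, had 0 called of 10 there and a median of 0.0548. In microglia that list had Ifngr1 higher (log2 fold change 0.87, adjusted p = 0.02198) and Il12b lower (log2 fold change -1.37, adjusted p = 0.00271) of 9 tested, with a median of -0.13, where 2.38% of all genes were called. Of 16 genes of other T cell chemokine axes, 6 were tested in macrophages and monocytes. Ccl17, a ligand of Ccr4, was lower (log2 fold change -3.57, adjusted p = 0.00403), with a list median of -0.22, where 1.03% of all genes were called. Ccl17 was also among the genes leading the dendritic gate, at 251 CPM against 4.14 CPM in all other gated cells. The part of dendritic cells in its macrophage/monocyte value was not tested. The handling genes had 1 called of 13 in macrophages and monocytes, Ier3 (log2 fold change 0.79, adjusted p = 0.00566), with a median of 0.0627, against the same 1.03%. In T cells they had 1 of 13, Hspa1a (log2 fold change 0.96, adjusted p = 0.00818), against 0.224%. In dendritic cells 0 were called of 6, 8, 5 and 13 genes tested of the 4 lists. Medians over all genes were -0.0015 in macrophages and monocytes and 0.0092 in microglia.

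Across classes, T cells against macrophages and monocytes had 4 of 10 genes of the interferon-gamma list higher, Ifng, Ifngr1, Jak1 and Socs1, and 5 lower, among them Ifngr2, Il12b, Il18 and Jak2, where 33.4% of all genes were higher and 32% lower. Ifng, the inducer itself, had 687, 687, 661 and 852 CPM in T cells and 1.43, 1.94, 0 and 1.198 CPM in macrophages and monocytes (log2 fold change 8.85, adjusted p = 1.53e-24). Tumor cells, the class with the most Cxcl10, had 2 of the list higher than macrophages and monocytes, Irf1 (log2 fold change 2.104, adjusted p = 1.22e-11) and Socs1 (log2 fold change 1.72, adjusted p = 1.11e-06). The 7 lower genes included the receptor chains Ifngr1 and Ifngr2, and Jak1, Jak2, Il12b and Il18. The list median was -1.91 beside 0.17 over all genes, of which 41.3% were higher and 31.6% lower. Mature against type 1 dendritic cells had 5 of 8 higher, among them Irf1, Jak1, Jak2 and Socs1, and 0 lower, where 23.7% of all genes were higher and 22.2% lower. Of the other axes, Ccl17 (log2 fold change 2.602, adjusted p = 8.61e-05) and Ccl22 (log2 fold change 3.57, adjusted p = 0.01599) were both higher in mature cells.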

How the data were processed

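Raw UMI counts per gene and cell, deposited by the authors for 4 mixed-cell and 2 CD11b+ libraries, were used as given. The submitters' processing notes name Cell Ranger 1.3 and the mm10 build, with 8 sequencing entries per library, 48 in all. A minimum of 500 genes and a maximum of 10% mitochondrial UMIs per cell left 8726 of 9172 mixed and 5535 of 5724 CD11b+ cells. A cell joined a class with at least 2 of its markers (3 for macrophages and monocytes) and a marker share at least 1.5 times that of the next class. This placed 6285 mixed and 4173 CD11b+ cells in 7 classes, left 1147 and 955 ambiguous and gave the rest to no class or to other gates. The monocyte side needed 2 monocyte markers. Thinning used seed 1. Scrublet (expected rate 0.05) called 61 mixed cells, or 0.699%, which were kept except in an alternative. It called 2 CD11b+ cells, or 0.0361%. Both shares lie far below the expected rate, so that doublets may remain, and in the CD11b+ libraries they could not be assessed.

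UMIs were summed per library and class and tested over all genes in edgeR 4.0.16 (filterByExpr, TMM, robust quasi-likelihood F test, Benjamini-Hochberg) in R 4.3.3 with limma 3.58.1, a call being an adjusted p under 0.05. Class contrasts and interaction tests took the library as a block. DESeq2 1.42.0, no filter, no TMM, a replicate block, a stricter gate with 1 more marker, thinned cells, Scrublet calls left out and each library left out were alternatives. The fits were tested on simulated data. CD11b+ libraries had no test, only exact Poisson and exact counting intervals. Other tools were Python 3.11.15, numpy 2.4.6, pandas 2.3.3, scipy 1.17.1, scanpy 1.11.5 and matplotlib 3.10.9. Positions are from GENCODE M21.

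The genes named are the 9 members whatever their value, the genes of the fixed lists, and for each member the 3 genes of highest Pearson r. The members and lists were chosen with earlier results of these data known, and the subset fits and the contrast of mature with type 1 dendritic cells after seeing the data.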

Additional observations from a re-analysis of the deposited data

Results flagged for a closer look

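The response of Ccl5 to the knockdown differed between 2 cell classes by the interaction test: the microglial log2 fold change minus that of macrophages and monocytes was -1.01 (adjusted p = 0.00202, edgeR). That call held in 4 of 6 alternatives and was lost without shNC 1 (adjusted p = 0.127) and without TMM scaling (adjusted p = 0.154). The response of Ccl4 differed between the same classes in the other direction, by 0.71 (adjusted p = 0.00509, edgeR). It held in 4 of 6 alternatives and was lost without shNC 1 (adjusted p = 0.127) and without shNC 2 (adjusted p = 0.186). The macrophage/monocyte markers in the microglia gate were lower under shSELP, at 575 and 279.6 CPM, than under shNC, at 1032 and 815 CPM. Of the 13 handling genes, which respond to dissociation, 12 had a higher response in microglia by fold. Called higher were 4 (Atf3, Hspa1a, Hspa1b and Jun) and called lower was 1 (Ier3), where 1.35% and 1.97% of all genes were called. The part of either list in the Ccl5 and the Ccl4 difference was not tested.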

How the results depend on the processing

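The 78 results for the 9 genes with a log2 fold change were recomputed 642 times, and 533 values kept their direction and side of the threshold, 39 lost the call, 52 gained one and 18 turned direction. For 30 results nothing changed. The cause of each change was not tested. With 1 library left out of a group, the lone library is assumed to vary like the other group. Contrasts of dendritic subsets with type 2 cells were not run, since that gate held 0 to 3 cells per library, and DESeq2 and the replicate block were not run on subsets.

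Directions turned as follows, as log2 fold changes of shSELP against shNC. In macrophages and monocytes Cxcl16 was -0.0019 without TMM, and Ccl3 was -0.032 without TMM, -0.0344 without shNC 2, -0.15 without shSELP 1 and -0.25 in thinned cells. In microglia Ccl4 was -0.0828 without shNC 2, and Ccl5 was -0.29 without shNC 2, -0.23 without shSELP 2 and -0.15 thinned. Ccl5 in NK cells was 0.11 without shNC 1. Against macrophages and monocytes, Ccl5 was -0.0191 in dendritic cells under the stricter gate, and in T cells -0.0070 without shNC 1, -0.0884 without shNC 2, -0.13 without shSELP 1 and -0.0081 under the stricter gate. Cxcl9 in mature against type 1 dendritic cells was -0.12 without shNC 2. The dendritic minus macrophage response of Ccl5 was 0.51 without shNC 2 and 0.0526 without shSELP 2. With a library left out, the full ranges were -0.15 to 0.19 for Ccl3 in macrophages and monocytes, -0.0828 to 0.42 for Ccl4 and -0.29 to 0.93 for Ccl5 in microglia, and -0.43 to 0.11 for Ccl5 in NK cells. They were -0.13 to 0.35 for Ccl5 in T cells against macrophages, -0.12 to 0.65 for Cxcl9 in mature against type 1 dendritic cells and -0.91 to 0.51 for the dendritic response of Ccl5.

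Between the groups, in the remaining cases where a call depended on the processing, Cxcl9 passed in 1 of 11 alternatives in macrophages and monocytes (no filter, adjusted p = 0.0147) and in 1 of 11 in dendritic cells (without shNC 2, adjusted p = 0.0367). Ccr1 in dendritic cells passed in 2 of 11, and Ccl5 in macrophages and monocytes in 8 of 11. Against macrophages and monocytes, Cxcl9 and Cxcl16 each passed in 1 of 9 in dendritic cells and in 2 of 9 in microglia. In subsets with a library left out, Ccl5 passed in 2 of 4 fits in the rest of the macrophage/monocyte gate and in 1 of 4 in mature dendritic cells, Ccl4 in 1 of 4 in that rest, and Cxcr6 in 2 of 4 in regulatory T cells.

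Numbers of genes called between the groups moved more than the folds. In macrophages and monocytes 109 became 522 with no filter, 388 with the replicate block, 41 in thinned cells and 91 to 309 with a library left out. In microglia 191 became 92 in DESeq2, 532 with no filter, 772 with the replicate block, 314 under the stricter gate, 18 thinned and 101 to 668 with a library left out. Dendritic cells went from 0 to 54 with no filter and 0 to 438 with a library left out. Neutrophils went from 0 to 1 with no filter and 0 to 6 with a library left out. Tumor cells went from 3 to 25 in DESeq2, 382 with no filter, 7 without TMM, 348 with the replicate block and 0 to 508 with a library left out. T cells went from 22 to 13 in DESeq2, 228 with no filter, 8 without TMM, 5 with the replicate block, 11 with Scrublet calls left out and 51 to 422 with a library left out. NK cells went from 0 to 3 with no filter, 1 with the replicate block and 1 to 14 with a library left out. With a library left out, the monocyte side went from 94 to between 1 and 35 genes, the rest of that gate from 54 to between 14 and 268, CD8 T cells from 8 to between 15 and 351, conventional CD4 T cells from 1 to between 18 and 67, regulatory T cells from 0 to between 1 and 63 and mature dendritic cells from 0 to between 1 and 283.

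In thinned cells the class contrasts called 1877 in place of 4102 genes for dendritic cells, 1629 in place of 3598 for microglia, 1084 in place of 2301 for neutrophils, 3037 in place of 7181 for tumor cells, 2930 in place of 6451 for T cells, 2059 in place of 4117 for NK cells and 564 in place of 1265 for NK against T cells. Neutrophils called 1428 without TMM and 1432 without shSELP 1, and NK against T cells 805 without shSELP 2. With a library left out, CD8 against CD4 went from 1059 to between 619 and 1198, regulatory against conventional T cells from 789 to between 428 and 828, and the microglial difference in response from 344 to between 182 and 269. The monocyte side against the rest went from 1343 to 844 without shNC 2. The dendritic difference in response went from 8 to 13 without TMM, 20 under the stricter gate and 32 to 178 with a library left out. The correlation of paired deviations between libraries of the same number, which the replicate block would use, was -0.0143 in macrophages and monocytes, 0.106 in microglia, -0.0303 in dendritic cells, 0.348 in neutrophils, -0.0274 in tumor cells, 0.0535 in T cells and 0.0865 in NK cells.

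CD11b+ ratios in macrophages and monocytes moved for Cxcl9 to 1.43 under the stricter gate and 1.29 with TMM, for Cxcl10 to 0.948 under the stricter gate, 0.886 thinned and 0.957 with TMM, and for Cxcl16 to 0.905 with TMM. Ccl3 moved to 0.933 and 0.831, and Ccl5 to 2.49 and 2.07, under the stricter gate and with TMM. Ccl4 moved to 0.663 with TMM, and Ccr1 to 0.987 thinned and 0.993 with TMM. In microglia Ccl4 moved to 0.9495 under the stricter gate and 0.951 with TMM, and Ccl5 to 1.16 thinned. Depth limits shares of cells: unthinned, the mean share with a UMI was 72.95% for Cxcl9, 96.4% for Cxcl16 and 87.1% for Ccr1 in macrophages and monocytes, 94.7% for Cxcl10 in tumor cells, 20.2% for Cxcr3 and 65.1% for Cxcr6 in T cells, and 87.9% for Ccl3 and 90.7% for Ccl4 in microglia.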

Other observations

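Outside the 7 classes, Cxcl9 in gates that hold vessel cells varied widely between libraries and was high in the shNC libraries, which had few such cells. Mural-gated cells, 5, 9, 77 and 25 in number, had 5667, 7001, 46.2 and 3670.4 CPM of Cxcl9, with shSELP 1 far below the other libraries. Endothelial-gated cells, 20, 31, 335 and 73 in number, had 758, 1792, 71.9 and 129.9 CPM, both shSELP libraries below both shNC libraries. Cxcl9 was found in 60%, 55.6%, 9.09% and 16% of unthinned mural and 30%, 41.9%, 5.37% and 13.7% of unthinned endothelial cells. These gates were not tested. Over the 4 libraries the endothelial gate also ranged from 10.6 to 265 CPM of Cxcl16 and from 0 to 60.6 CPM of Ccr1, which were myeloid genes here. The part of myeloid cells in the Cxcl9 values of these gates was not tested.

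Plasmacytoid dendritic cells, gated on 3 markers and numbering 4, 15, 1 and 10, had 8090.0, 4790.3, 7781 and 2820.0 CPM of Ccl4. Plasma cells, numbering 9, 7, 4 and 2, had 99.01, 91.3, 379.5 and 33.2 CPM of Cxcr3 from 13, 12, 16 and 1 UMIs. In the CD11b+ libraries, dendritic-gated cells held 115 Ccl4 UMIs under shNC and 6 under shSELP, a ratio of 0.0964 (0.0347 to 0.216) by counting error only, from 48 and 33 cells. The 12 macrophage/monocyte markers in that gate summed to 1225 and 716 CPM, led by Plac8 with 5 and 6 at 0, and the 13 handling genes to 5343 and 3008 CPM, led by Junb with 0 and 2 at 0. Their part in this Ccl4 ratio was not tested. CD11b+ cells of the monocyte side had a Cxcl9 ratio of 1.65 (1.58 to 1.72), beside 1.25 (1.22 to 1.29) in the rest of the gate.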
